A study of Mus musculus with 16 samples.

Results

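The 9 genes described here write, copy, protect or oxidise DNA methylation: Dnmt1, Dnmt3a, Dnmt3b, Dnmt3l, Uhrf1, Tet1, Tet2, Tet3 and Dppa3. They were taken by name from a RefSeq gene table of the mouse build GRCm38 (mm10), and all 9 were found among its 21887 protein-coding genes on chromosomes 1 to 19, X and Y. The study mapped 2 histone modifications in mouse late 2-cell embryos, taken 36 h after fertilization, with ultra-low-input native ChIP-seq, in which micrococcal nuclease cuts uncrosslinked chromatin and an antibody pulls down the marked fragments. Control embryos had been injected with water (H2O) as zygotes, and mutant embryos with mRNA of a mutant Hdac1. Hdac1 is a histone deacetylase. The labels name no residue for the mutation and do not say that the embryo's own Hdac1 was removed. Strain and number of embryos are not given in the sources used here, and positions of peaks cannot check the stage against marker RNAs. Each mark in each condition had 2 immunoprecipitation and 2 input libraries, 16 in all, but the data are 1 deposited peak list per mark and condition. A list gives the position of each peak and no height, so the values below are numbers of peaks, bases under a peak and peak widths. They have no replicate error and no test, the sequencing depth is unknown, and each difference is one between deposited lists.

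DNA methylation is the addition of a methyl group to cytosine, mostly where a G follows (CpG). Dnmt1 copies it onto the new strand at replication, guided by Uhrf1, which recognises hemimethylated DNA. Dnmt3a and Dnmt3b set new methylation, and Dnmt3l is a partner without catalytic activity that assists them in the germ line. The Tet enzymes oxidise methylcytosine, a step towards its removal, and Dppa3 (Stella) protects maternal DNA from this oxidation in the zygote. Most methylation inherited from the gametes is lost over the cleavage divisions. H3K27ac marks active promoters and enhancers, and H3K4me3 marks promoters, above all those rich in CpG.

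Promoters at which a mark was listed in control and not in mutant embryos, or which stood at the extremes of CpG content, are shown first. Of the 2 Uhrf1 start sites of this kind, only site 2 is printed. RefSeq's GRCm38.p6 promoter table held 15 start sites for 8 of the 9 genes. The sequences are the 250 bases before a start site, 5′ to 3′ on the gene's strand, with every CpG in capitals. Dnmt1 start site 1 (chr9:20959889-20960138, minus strand) holds 2 CpG in these bases and was under both marks in both conditions. Dnmt3b (chr2:153649199-153649448, plus strand) holds 21, and its H3K4me3 was listed in control embryos alone. Uhrf1 start site 2 (chr17:56304063-56304312, plus strand) holds 30 and Tet2 (chr3:133544391-133544640, minus strand) holds 51, and at both H3K27ac was listed in control embryos alone. The Uhrf1 and Tet2 sites lie 976 bp and 746 bp inside the 5′ end of the gene as annotated, so these bases are upstream of that start site but not of the whole gene.
Dnmt1 start site 1: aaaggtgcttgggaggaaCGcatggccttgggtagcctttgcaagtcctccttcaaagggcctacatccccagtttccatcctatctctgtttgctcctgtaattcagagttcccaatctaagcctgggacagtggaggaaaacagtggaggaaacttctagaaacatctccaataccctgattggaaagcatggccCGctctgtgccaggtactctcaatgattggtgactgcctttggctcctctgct
Dnmt3b: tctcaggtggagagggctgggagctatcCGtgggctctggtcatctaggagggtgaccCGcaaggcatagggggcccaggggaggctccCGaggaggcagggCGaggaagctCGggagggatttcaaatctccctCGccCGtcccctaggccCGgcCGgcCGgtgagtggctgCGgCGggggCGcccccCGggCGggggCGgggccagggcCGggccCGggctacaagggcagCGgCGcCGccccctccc
Uhrf1 start site 2: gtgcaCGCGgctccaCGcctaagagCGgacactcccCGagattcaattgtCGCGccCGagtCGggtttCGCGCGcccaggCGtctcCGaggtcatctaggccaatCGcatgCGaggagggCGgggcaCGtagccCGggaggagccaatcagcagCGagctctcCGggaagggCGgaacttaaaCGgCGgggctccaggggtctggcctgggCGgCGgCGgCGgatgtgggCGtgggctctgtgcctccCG
Tet2: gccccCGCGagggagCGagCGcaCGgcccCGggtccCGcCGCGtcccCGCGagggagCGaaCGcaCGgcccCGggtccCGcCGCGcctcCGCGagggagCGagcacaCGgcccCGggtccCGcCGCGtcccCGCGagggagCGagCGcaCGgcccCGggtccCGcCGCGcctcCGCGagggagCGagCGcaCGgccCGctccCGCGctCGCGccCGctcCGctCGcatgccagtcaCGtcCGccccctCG

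Over the 300 bases of the promoter table (250 before to 50 after the start site), the ratio of observed to expected CpG ran from 0.101 at Dnmt1 start site 1 to 1.17 at Tet2, and 7 of the 15 promoters reached 0.6, against 47.7% of 21263 promoters of all genes. The Tet2 promoter also repeats within itself: its longest run of letters that occurs more than once is 43 bp, against a median of 9 bp, and 99.8% of all promoters have a shorter one. The letters GGGCGG (a GC box) on either strand were in 12 of the 15 promoters, all but Dnmt1 sites 1 and 2 and Dnmt3l site 3, against 46.2% of all promoters. Among promoters of all genes with a CpG ratio of at least 0.6 the share was 74.1%. The 15 promoters were also richer in G and C, with a median of 68.3% against 56.3% of all. CCAAT was in 5 of 15 (38.2% of all) and CACGTG in 2 of 15 (7.84% of all), at Dnmt3a site 3 and Dnmt3l site 2. TATAAA was in none of the 15, against 12.6% of all. These are matches of letters in a short window, and Dnmt3a sites 1 and 2 share sequence because their windows overlap.

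Across the 9 genes, peaks of both marks were present at nearly every gene in both conditions. The widest listed H3K27ac peak at a gene end was wider in control embryos at 7 of 8 genes. The same held for 67.2% of all genes with such a peak in both conditions. A gene-end window is 2 kb on each side of either end of the gene, 8002 bp per gene (7848 bp at the short Dppa3, whose windows join). H3K27ac peaks lay in this window at 8 of 9 genes in control and at 8 of 9 in mutant embryos, all but Tet3, against 54.8% and 58.0% of all protein-coding genes. H3K4me3 peaks lay there at 9 of 9 in both conditions, against 74.7% and 72.9% of all genes. No member had a gene-end peak in control and none in mutant embryos, 0 of 8 for H3K27ac and 0 of 9 for H3K4me3, against 22.7% and 8.94% of all genes with one in control. These counts depend on the window. With windows of 1 kb, Dnmt3b had H3K4me3 in control alone. With windows of 2 kb around RefSeq start sites, so did Dnmt3b, and Uhrf1 and Tet2 had H3K27ac in control alone. Tet3, without a gene-end H3K27ac peak in control, had none in mutant embryos either (0 of 1, against 34.6% of such genes).

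Covered bases at the gene ends were mostly fewer for H3K27ac in mutant embryos, but few genes passed a 2-fold limit. The median over the 9 genes was 5177 bp in control versus 3675 bp in mutant embryos, while over all protein-coding genes it was 403 bp and 581 bp. The summed cover gave mutant to control ratios of 0.687 over the 9 genes and 0.86 over all genes, so it was lower in both. With the limit of 2-fold, only Tet1 was at least 2-fold lower in mutant embryos (1 of 8, against 41.4% of all genes with covered bases in control), and none was at least 2-fold higher (0 of 8, against 37.9%). For H3K4me3 the median was 5429 bp in control versus 5059 bp in mutant embryos (2939 bp and 3213 bp over all genes). Dnmt3b alone was at least 2-fold lower (1 of 9, against 14.2%), and none was at least 2-fold higher (0 of 9, against 14.4%). Neither gene passed the limit with windows of 5 kb, Tet1 did not with windows of 1 kb, where Dppa3 did, or with windows of 2 kb around RefSeq start sites, and Dnmt3b did not in the wider 50% of each list. The widest H3K27ac peak at a gene end was narrower in mutant embryos at 7 of 8 genes, all but Uhrf1, a share to be read against 67.2% of all genes with such a peak in both conditions. For H3K4me3 it was narrower at 4 of 9, Tet1, Tet2, Tet3 and Dppa3, against 37.4%. The widest peak was taken over both ends, so a control peak at one end can stand against a mutant peak at the other. That was so for H3K27ac at Dnmt3a, Dnmt3b, Dnmt3l and Tet1, and for H3K4me3 at Dnmt3b, Dnmt3l and Tet1. At Dnmt3b the control H3K4me3 peak of 1586 bp lay at the start and the mutant one of 2008 bp at the far end. The mutant H3K27ac list as a whole held more and smaller peaks, 122487 against 77349, with 9.92% against 19.9% over 5 kb, and the part of this in the widths at the 9 genes was not tested.

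**Figure D1:**
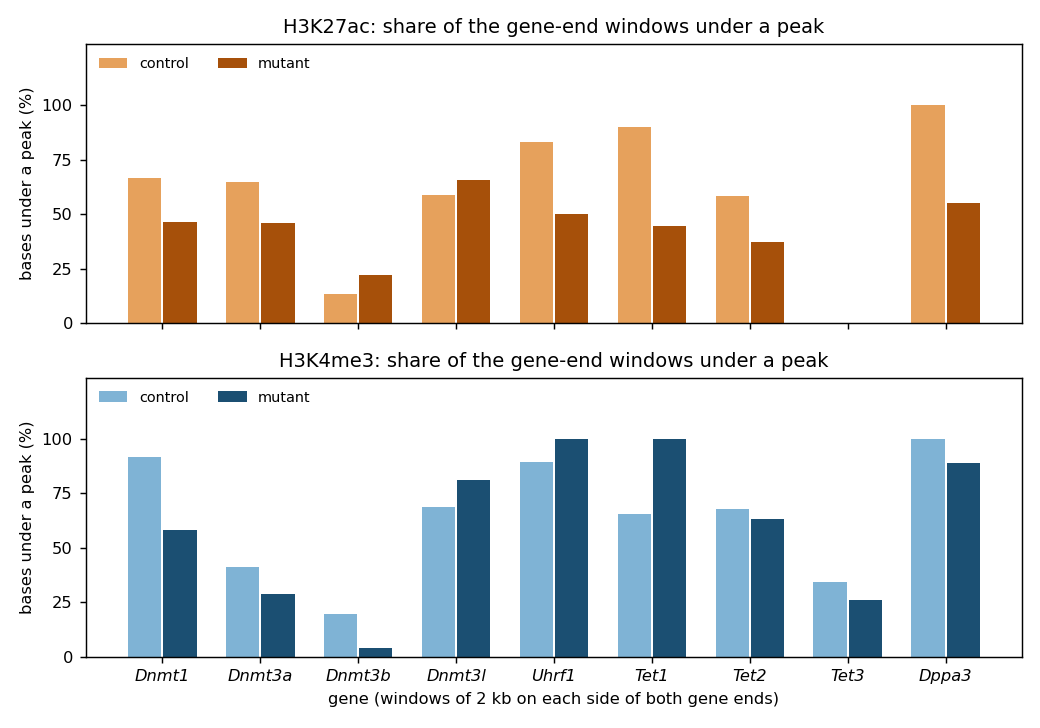
Share of the gene-end windows (2 kb to either side of each gene end) that lay under a peak, in percent, for each of the 9 genes; the upper panel is H3K27ac and the lower panel H3K4me3, and each bar is 1 deposited list (light, control; dark, mutant). H3K27ac bars are lower in mutant embryos at 6 genes, higher at Dnmt3b and Dnmt3l, and at 0 at Tet3, where no peak was listed.

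The genes that copy methylation were heavily marked in both conditions. Dnmt1 (chr9:20907206-20959888) lay under H3K27ac over 70.1% of its body in control and 38.9% in mutant embryos, and its widest gene-end H3K27ac peak, over the start, measured 33361 bp and 14474 bp. H3K4me3 covered 40.4% of the body in control and 21.9% in mutant embryos, while its widest gene-end peak was of near-equal width, 13464 bp and 14775 bp. The 2 ends of Dnmt1 differed. Around the start, H3K27ac covered 4001 bp of 4001 in control versus 3713 bp in mutant embryos and H3K4me3 all 4001 bp in both, whereas at the far end H3K27ac covered 1334 bp in control versus 0 bp in mutant embryos and H3K4me3 3346 bp and 637 bp. RefSeq gives Dnmt1 3 start sites, and the gene is known to use different first exons in oocytes and somatic cells. At sites 2 and 3, 6909 bp and 7265 bp downstream of site 1, H3K27ac cover went from 100% of the window in control to 57% and 48.1% in mutant embryos, and H3K4me3 cover from 74% and 65.1% to 100%. The windows of sites 2 and 3 overlap and share their peaks.

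Uhrf1 (chr17:56303337-56323486) was the only member with a wider gene-end H3K27ac peak in mutant embryos, and it had none at its start there. Around start site 1, H3K27ac covered 2644 bp in control versus 0 bp in mutant embryos, and around site 2, 2286 bp and 0 bp; these 2 windows overlap and share a peak. The nearest mutant H3K27ac peak was 2606 bp from site 2 and 177 bp wide. H3K4me3 over the same windows went the other way, from 3160 bp to 4001 bp at site 1 and from 3502 bp to 4001 bp at site 2, under a mutant peak of 20606 bp where the control peak measured 3637 bp. These widths depend on joining: with peaks less than 1 kb apart merged, the widest mutant H3K4me3 peak at Uhrf1 was 47423 bp in place of 22914 bp, and the widest control one stayed at 19237 bp. The far end, next to Kdm4b, was under H3K27ac over 4001 bp in both conditions, and the peak there was 7845 bp wide in control versus 15360 bp in mutant embryos. With peaks less than 1 kb apart merged, the widest H3K27ac peaks were 17902 bp and 18329 bp, and the widest Tet2 peak, 7385 bp in control, was then also wider in mutant embryos (9000 bp).

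The genes that set new methylation differed from each other. Dnmt3a (chr12:3801559-3914443), the largest of the 9, carried 10 H3K27ac peaks over its body in control and 12 in mutant embryos, which covered 68.9% and 53.4% of it. H3K4me3 had 12 body peaks in control and 6 in mutant embryos, covering 46.2% and 33.9%. Its RefSeq start sites 1 and 2, 5421 bp and 5601 bp inside the gene as annotated, had no H3K27ac within 2 kb in either condition. H3K4me3 lay over both, 2987 bp and 3138 bp in control and 4001 bp at each in mutant embryos, where the peak was 14068 bp wide against 3138 bp. These 2 windows overlap and share their peaks. Start site 3, 90185 bp inside the gene, was under both marks in both conditions, with 3149 bp of H3K27ac in control versus 3399 bp in mutant embryos and 3987 bp and 2715 bp of H3K4me3. Of the 3 start sites, H3K27ac was listed only within 2 kb of site 3, which is the poorest in CpG. Around the gene's annotated 5′ end, upstream of all 3, H3K27ac covered 2873 bp in control versus 1021 bp in mutant embryos.

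Dnmt3b (chr2:153649411-153687730) had fewer covered bases than Dnmt3a and Dnmt3l and was the one member whose start site had H3K4me3 in control embryos alone. The control H3K4me3 peak at the start was 1586 bp wide and reached from -485 bp to 1100 bp relative to the gene's 5′ end. In mutant embryos the window held 0 bp, and the nearest H3K4me3 peak was 4987 bp from the start site. H3K27ac lay beside the start and not on it, with 1030 bp of the window in control versus 765 bp in mutant embryos. Over the gene with 2 kb on each side, H3K4me3 covered 6917 bp in control in 4 peaks and 1614 bp in mutant embryos in 2 peaks, with no base in common. The widest intragenic H3K27ac domain was nearly the same in both lists, 7031 bp from 9623 bp to 16653 bp inside the gene in control and 6758 bp from 9605 bp to 16362 bp in mutant embryos. It was covered by 2 H3K4me3 peaks over part of its length in control embryos and by none in mutant embryos. The other control H3K27ac peaks over the body, of 1588 bp, 253 bp and 267 bp, overlapped no mutant peak. Body cover of H3K27ac was 9139 bp in 4 control peaks and 6758 bp in 1 mutant peak.

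Dnmt3l (chr10:78042287-78063622) was the only member with more covered bases of both marks, over the gene with 2 kb on each side, in mutant embryos: 11965 bp and 14543 bp of H3K27ac, and 12457 bp and 19285 bp of H3K4me3, in control and mutant order. At start site 1, close to the start of the neighbouring gene Aire, H3K27ac went from 1182 bp to 4001 bp of the window and H3K4me3 from 3398 bp to 4001 bp. Start site 3, 13048 bp inside the gene, was 90.8% to 100% covered in each of the 4 lists. Start site 2, between them, had no peak in control embryos, and in mutant embryos it lay under a H3K4me3 peak of 14614 bp that reached site 3 and the far end, with 2363 bp in the window and no H3K27ac. The widest H3K27ac peak at a gene end was 14908 bp in control, at the start, versus 10369 bp in mutant embryos, at the far end. By width the gene is thus among the 7 narrower ones while its cover was higher.

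**Figure D2:**
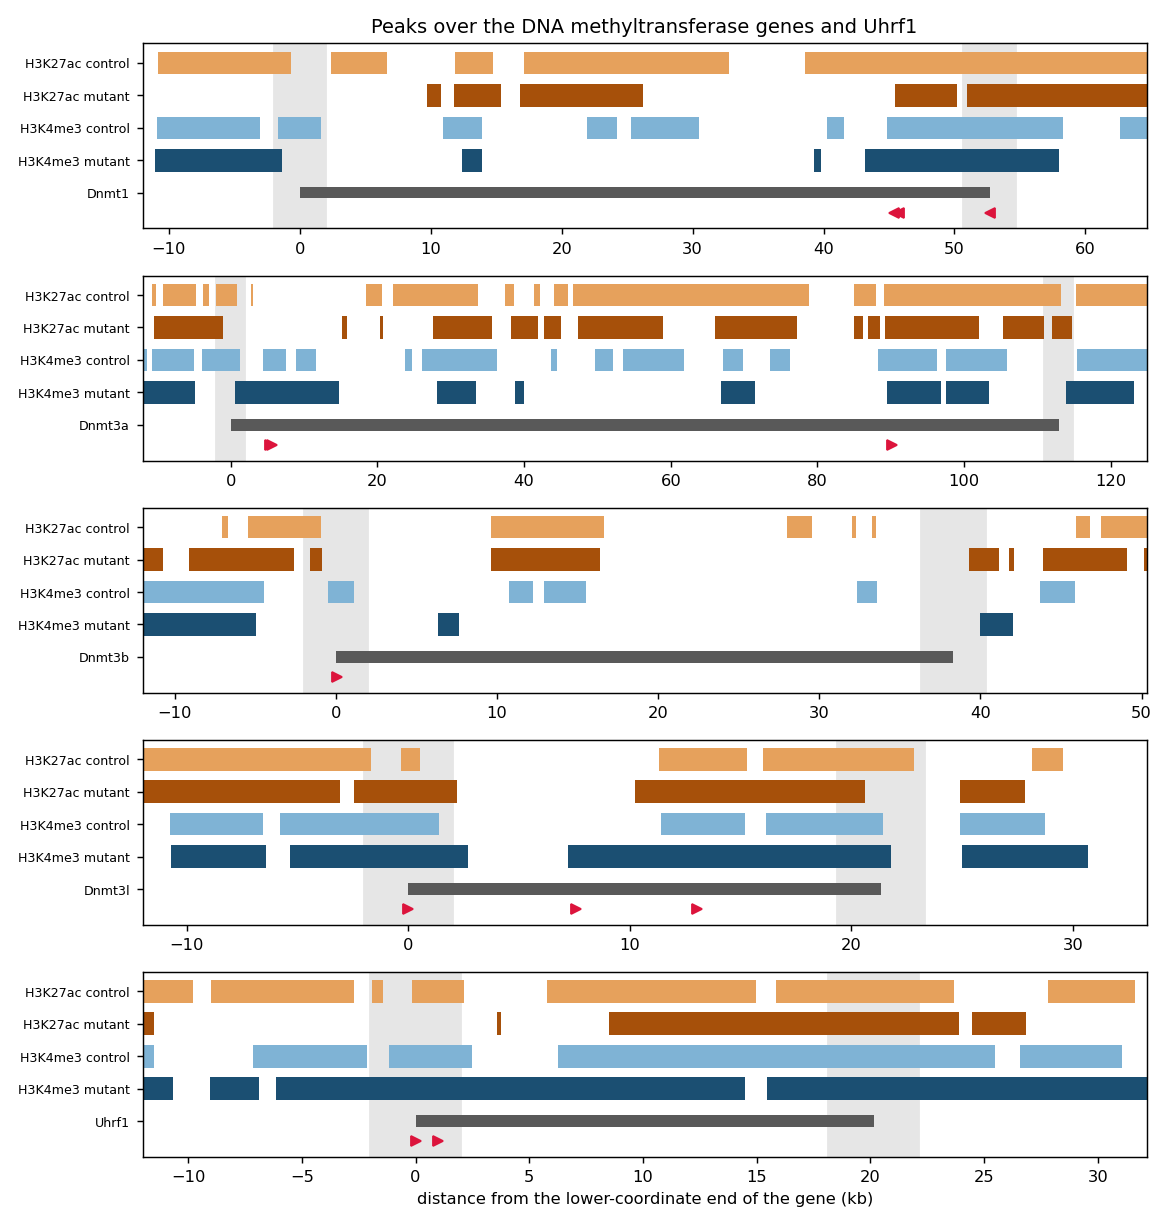
Peaks of the 4 lists over Dnmt1, Dnmt3a, Dnmt3b, Dnmt3l and Uhrf1; the x axis is the distance in kb from the end of the gene with the lower coordinate, and peaks are clipped at 12 kb outside the gene. Grey bars are genes, grey bands the gene-end windows, and red arrowheads RefSeq start sites pointing in the direction of transcription. The control H3K4me3 peak of 1586 bp at the Dnmt3b start has no counterpart in the mutant row, and the control H3K27ac peak at the Uhrf1 starts has none either.

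The 3 Tet genes were marked in different ways. Tet1 (chr10:62804570-62887469) had the widest control domains of the 9 genes. A control H3K27ac peak of 67798 bp, reaching over Ccar1, ended at -548 bp relative to the far end of Tet1, and another of 47057 bp covered the Tet1 start and its neighbour Slc25a16. Those 2 peaks overlapped 10 and 8 separate mutant H3K27ac peaks, and the widest mutant peak at a gene end was 5894 bp. Gene-end cover of H3K27ac was 7193 bp in control versus 3565 bp in mutant embryos. Inside the gene the cover was almost equal, 33180 bp in 7 peaks and 32346 bp in 15 peaks, but it lay partly elsewhere. Taken with 2 kb on each side, 59.2% of the control bases were also covered in mutant embryos, against 44.1% over all protein-coding genes. The H3K4me3 peak at the start was 53596 bp wide in control versus 8027 bp in mutant embryos, whose widest one, at the far end, measured 12035 bp. With peaks less than 1 kb apart merged, the widest were 68195 bp and 20484 bp. Even so, H3K4me3 cover of the gene ends was higher in mutant embryos, 8002 bp against 5224 bp.

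Tet2 (chr3:133463677-133545136) had H3K4me3 but no H3K27ac at its start site in mutant embryos. H3K27ac covered all 4001 bp of the start-site window in control embryos, under a peak of 4207 bp, and 0 bp in mutant embryos, where the nearest peak was 5666 bp away. H3K4me3 covered 2409 bp in control versus 2037 bp in mutant embryos, under peaks of those same widths. Inside the gene the 2 H3K27ac lists held similar totals, 18917 bp in 5 peaks in control and 20587 bp in 11 peaks in mutant embryos, but largely in different places. Over the gene with 2 kb on each side, 47.6% of the control bases were also covered in mutant embryos, near the 44.1% over all protein-coding genes.

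Tet3 (chr6:83362373-83457208), the Tet enzyme known as the maternal one of oocyte and zygote, had the lowest share of its body under H3K27ac, 14% in control and 12.2% in mutant embryos. No H3K27ac peak reached its gene ends in either condition; the nearest were 4648 bp from the window in control versus 2595 bp in mutant embryos. Its body held 5 H3K27ac peaks in each list, 13285 bp in control versus 11561 bp in mutant embryos, and the RefSeq start site, 15530 bp inside the gene as annotated, had none within 2 kb. H3K4me3 was present at the annotated 5′ end, 2760 bp in control versus 2083 bp in mutant embryos, and at the RefSeq start site, 2369 bp and 2099 bp. The 2 marks shared 1149 bp over the locus in control versus 0 bp in mutant embryos, the smallest overlap of the 9 genes.

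Dppa3 (chr6:122626424-122630271), which encodes the maternal factor Stella, lay wholly inside a wide domain of each mark in control embryos. The control H3K27ac peak was 26440 bp wide and the H3K4me3 peak 25873 bp, and both reached beyond the gene-end windows on either side. In mutant embryos each was divided: 3 H3K27ac peaks of 8781 bp, 2234 bp and 3868 bp and 2 H3K4me3 peaks of 3753 bp and 10968 bp reached the window. Covered bases in the window went from 7848 bp to 4320 bp of H3K27ac and from 7848 bp to 6967 bp of H3K4me3. Merging peaks less than 1 kb apart gave mutant widths of 13201 bp for H3K27ac and 23074 bp for H3K4me3, so for H3K4me3 most of the difference in width was in short gaps. Dppa3 has near-identical copies elsewhere in the genome, reads from which may be assigned to it or be left out, and the promoter table gives it no entry.

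**Figure D3:**
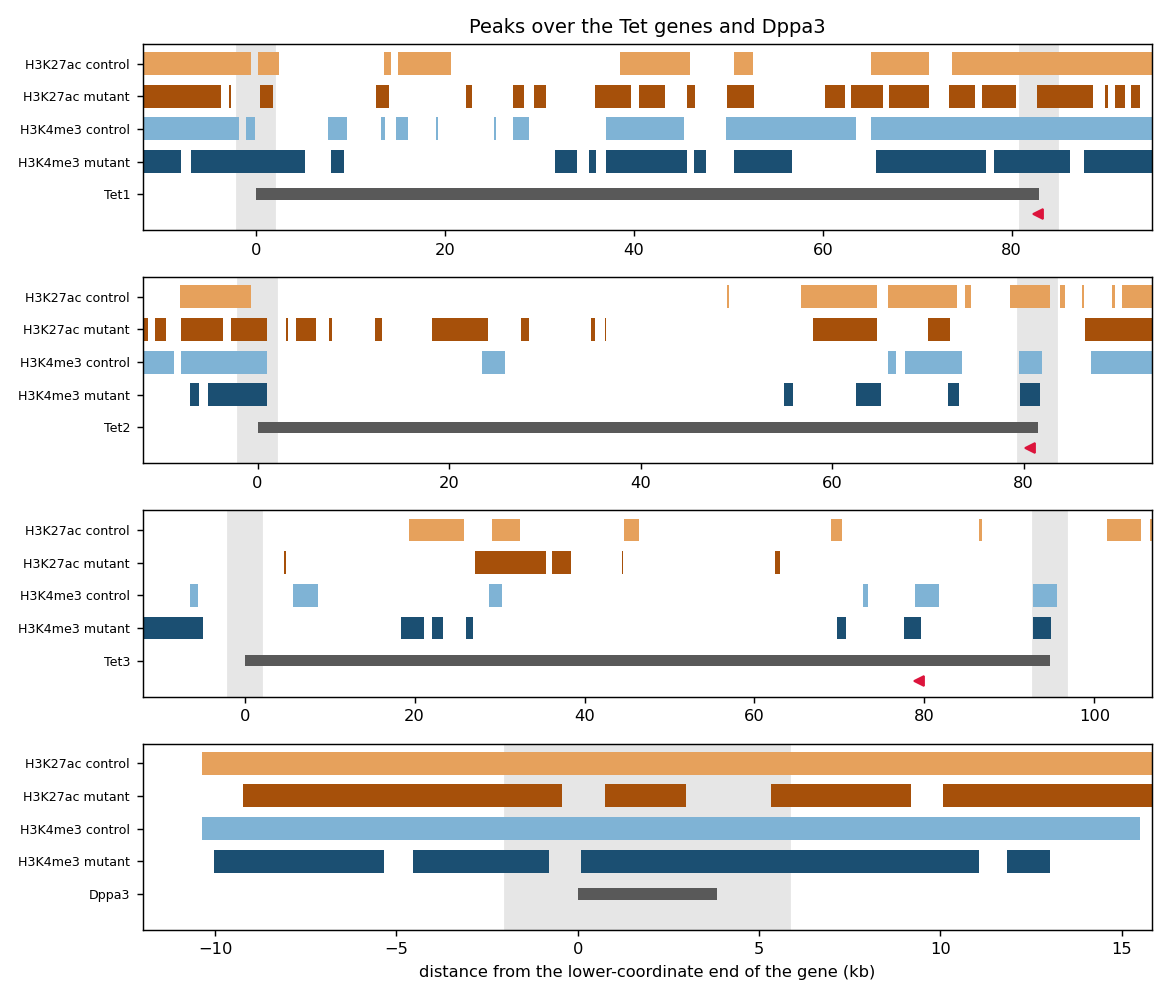
Peaks of the 4 lists over Tet1, Tet2, Tet3 and Dppa3, drawn as in the map of the methyltransferase genes (x axis in kb from the lower-coordinate end, clipped at 12 kb outside the gene; no start site is drawn for Dppa3). Control domains at Tet1 and Dppa3 stand opposite several mutant peaks, and the H3K27ac peak over the Tet2 start site has no mutant counterpart.

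**Figure D4:**
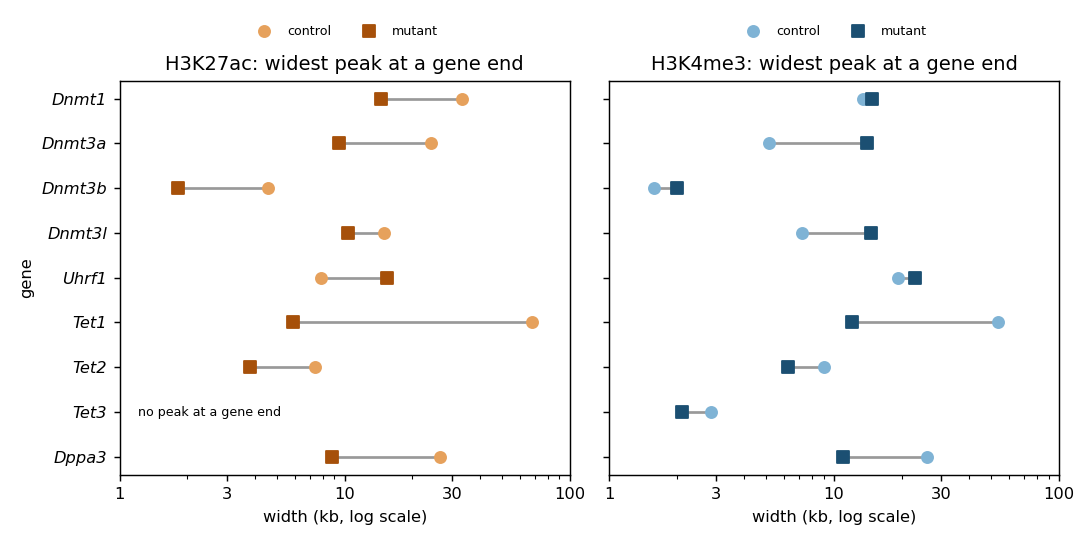
Width in kb, on a log scale, of the widest peak that reached a gene-end window of each gene, whole width; circles are control and squares mutant, each from 1 list. H3K27ac squares lie left of their circle at 7 genes and right at Uhrf1, while for H3K4me3 squares lie left at 4 genes and right at 5. Circle and square can stand for peaks at different ends of a gene, as for both marks at Dnmt3b, Dnmt3l and Tet1 and for H3K27ac at Dnmt3a.

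Peaks were also counted at the start sites. Within 2 kb of the 15 RefSeq start sites, H3K27ac peaks were listed at 11 in control versus 8 in mutant embryos, against 45.9% and 45.1% of all promoter windows. H3K4me3 peaks were listed at 14 in each condition, against 71.7% and 68.1% of all windows. H3K27ac was listed in control and not in mutant embryos at 3 of 11 sites, both sites of Uhrf1 and that of Tet2, against 35.0% of all windows with it in control. It was listed in mutant embryos alone at 0 of 4, against 28.1%. H3K4me3 was listed in control alone at 1 of 14 sites, Dnmt3b (against 11.6%), and in mutant embryos alone at the 1 site without it in control, Dnmt3l site 2 (against 16.9%). The windows of Uhrf1 sites 1 and 2, of Dnmt1 sites 2 and 3 and of Dnmt3a sites 1 and 2 overlap, so they are not separate cases. For both marks the counts in control alone are near the shares of all promoters. Narrow control peaks lacked a mutant peak more often over all promoters: 43.7% of windows whose widest control H3K27ac peak was 2 to 3 kb, as at Uhrf1, 37.1% at 3 to 5 kb, as at Tet2, and 24.7% for H3K4me3 peaks of 1 to 2 kb, as at Dnmt3b.

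Sites with a mark in control alone lay on both sides of a CpG ratio of 0.6. Promoters of all genes with an observed to expected CpG ratio of at least 0.6 had a H3K4me3 peak in 98.3% of windows in control and 92.6% in mutant embryos, and those under 0.6 in 47.4% and 45.8%. For H3K27ac the shares were 62.8% and 57.2% at 0.6 or more, and 30.5% and 34.0% below it. The ratio was 1.17 at Tet2, 0.472 and 0.959 at Uhrf1 sites 1 and 2, and 0.694 at Dnmt3b, the sites with a mark in control alone. Dnmt1 site 1, at 0.101, and Dnmt3l sites 1 and 3, at 0.272 and 0.114, are poor in CpG and were under both marks in both conditions. So were Dnmt1 site 2, at 0.5, and Dnmt3a site 3, at 0.468. Others under 0.6 differed: Dnmt3l site 2, at 0.219, had neither mark in control and H3K4me3 alone in mutant embryos, and Tet3, at 0.576, had H3K4me3 alone in both.

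**Figure D5:**
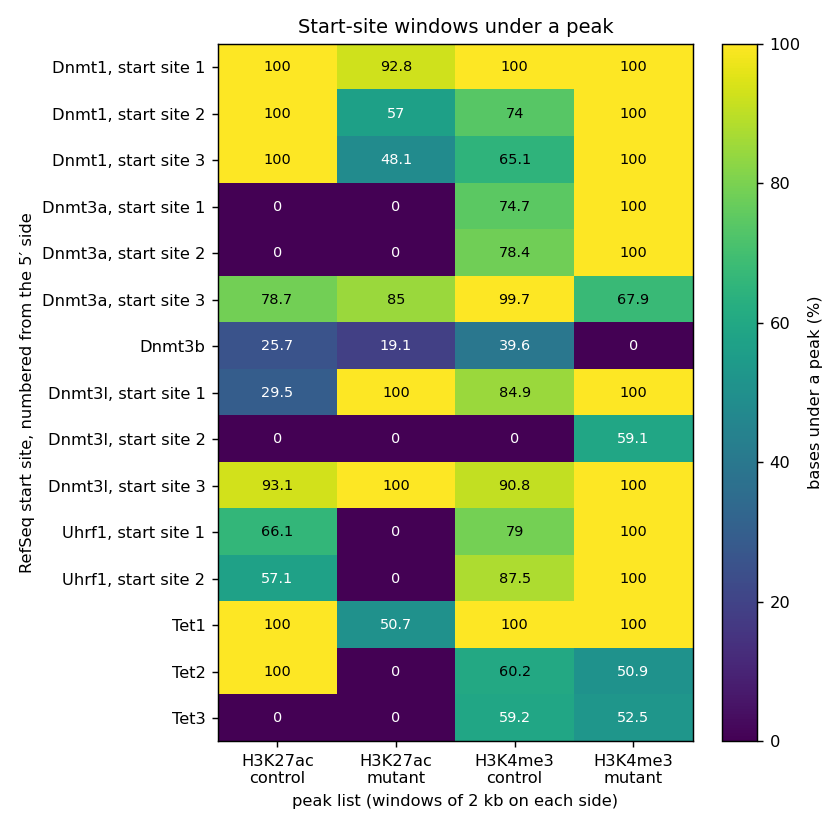
Percent of the window of 2 kb on each side of each RefSeq start site (rows, numbered from the 5′ side of the gene) that lay under a peak in each of the 4 lists (columns). The mutant H3K27ac cells are 0 at both Uhrf1 sites and at Tet2, where mutant H3K4me3 is 100% and 50.9%, and at Dnmt3b the mutant H3K4me3 cell is 0.

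For the 8 genes with a strand, cover was also summed by end. H3K27ac covered 19090 bp around the 5′ ends in control versus 11675 bp in mutant embryos, at 7 and 5 genes, and 15669 bp and 13291 bp around the far ends, at 6 genes in each. Cover at the 5′ end was lower in mutant embryos at Tet2 (3321 bp and 0 bp), Uhrf1 (2644 bp and 0 bp), Dnmt3a (2873 bp and 1021 bp) and Tet1 (4001 bp and 2175 bp) and by less at Dnmt1 and Dnmt3b, while Dnmt3l had more at its 5′ end in mutant embryos (1182 bp and 4001 bp) and less at its far end (3511 bp and 1264 bp). H3K4me3 covered 24605 bp and 21471 bp around the 5′ ends, at 8 and 7 genes, and 13690 bp and 15393 bp around the far ends, at 5 and 7 genes. Over 17492 genes with a strand, 45.6% in control and 44.9% in mutant embryos had a H3K27ac peak at the 5′ end, and 36.7% and 37.7% at the far end. For H3K4me3 these shares were 71.1% and 67.8% at the 5′ end and 40.2% and 39.2% at the far end.

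Summed over the 9 genes, overlap of the marks was lower in mutant embryos. At the gene ends both marks lay on the same base at 7 of 9 genes in control, all but Dnmt3b and Tet3, against 45.8% of all genes, and 0 of those 7 had no such base in mutant embryos (against 29.5%). That count was 1 (Dnmt3a) with windows of 1 kb and 2 (Uhrf1 and Tet2) with windows of 2 kb around RefSeq start sites. Over the genes with 2 kb on each side, 544418 bp in all, both marks shared 144891 bp in control versus 92256 bp in mutant embryos. That was 60.3% of H3K27ac bases and 72.4% of H3K4me3 bases in control, and 47.3% and 54.2% in mutant embryos. Over all protein-coding genes the shares were 54.7% and 56.6% in control and 42.8% and 37.3% in mutant embryos, so overlap was lower in mutant embryos there too. At Dnmt3l the 2 shares differed in direction, with 85.6% of H3K27ac bases under H3K4me3 in control and 100% in mutant embryos, and 82.2% and 75.4% of H3K4me3 bases under H3K27ac. Over the Dnmt3b gene with 2 kb on each side, 42.7% and 3.74% of H3K27ac bases were under H3K4me3, and 63.0% and 19.8% of H3K4me3 bases under H3K27ac. At Uhrf1 these shares were 94.7% and 92.8%, and 88.5% and 55.3%.

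Summed over the same 544418 bp, H3K27ac covered 240142 bp in control versus 195205 bp in mutant embryos, a ratio of 0.813, against 0.894 over all protein-coding genes. H3K4me3 covered 200213 bp and 170221 bp, a ratio of 0.85, against 1.06. Of the control bases, 59.9% of H3K27ac and 60.6% of H3K4me3 were also covered in mutant embryos, against 44.1% and 62.8% over all genes. Control embryos had 48 H3K27ac and 49 H3K4me3 peaks at these loci, mutant embryos 59 and 39. The median share of a gene body under H3K27ac was 46% in control versus 39% in mutant embryos, against 4.89% and 6.68% over all genes, and under H3K4me3 46.2% and 33.9%, against 13.2% and 14.7%. Unlike its median, the H3K27ac cover summed over all gene bodies was lower in mutant embryos, 131000376 bp against 145570722 bp in control. The medians of the 9 genes were above those of all genes for both marks, but H3K4me3 cover was below the median of all genes at Tet3 in both conditions (10.4% and 10.5%) and, in mutant embryos, at Tet2 (9.37%) and Dnmt3b (3.38%).

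Other genes of the pathway, 37 in 4 roles and all matched to the gene table, were counted in the same way. They had a gene-end H3K27ac peak at 29 in control and 26 in mutant embryos (54.8% and 58.0% over all genes), and a H3K4me3 peak at 37 and 36 (74.7% and 72.9%). H3K27ac was listed in control alone at 7 of 29 (22.7% over all genes): Mbd1, a reader of methylated DNA, Smug1, Xrcc1, Apobec1 and Gadd45g of the removal and repair group, Dmap1, a partner of Dnmt1, and Idh1, which makes the alpha-ketoglutarate that Tet enzymes consume. It was listed in mutant embryos alone at 4 of 8 (34.6% over all genes): the readers Mbd2 and Zbtb38, Zfp445, a zinc finger protein of imprint maintenance, and Ahcy, which clears the by-product of methylation. Zfp445 was also the one gene of 37 with H3K4me3 in control alone (8.94% over all genes). By role, H3K27ac was at 4 of 8 readers in control and 5 in mutant embryos, at 9 and 5 of 11 removal and repair genes, at 11 and 11 of 12 partners, and at 5 and 5 of 6 genes of methyl donor and cofactor supply. The covered bases of H3K27ac were at least 2-fold lower in mutant embryos at 15 of 29 genes (41.4% over all genes) and at least 2-fold higher at 6 of 26 (37.9%), those of H3K4me3 at 1 of 37 (14.2%) and 4 of 36 (14.4%). The widest H3K27ac peak measured less in mutant embryos at 17 of 22 genes with a peak in both (67.2% over all genes), and the widest H3K4me3 peak at 13 of 36 (37.4%).

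The 7 genes with H3K27ac in control alone, a share near that of all genes, had H3K4me3 in both conditions, as did 36 of all 37. Their control H3K27ac ran from 383 bp at Gadd45g to 4001 bp at Dmap1. Xrcc1, a scaffold of single-strand break repair, had 3299 bp of gene-end H3K27ac in control versus 0 bp in mutant embryos, and 3916 bp and 4001 bp of H3K4me3. Smug1, a uracil DNA glycosylase, had 3242 bp and 0 bp of H3K27ac, and 4008 bp and 3307 bp of H3K4me3. Dmap1 had 4001 bp and 0 bp of H3K27ac, and 3367 bp and 4001 bp of H3K4me3. Tdg and Trim28 are named in addition, chosen after their values were seen. Tdg, the glycosylase that removes oxidised methylcytosine, had no gene-end H3K27ac in either condition, and 4001 bp and 3846 bp of H3K4me3. Trim28, which with Zfp57 maintains methylation at imprinted genes, had 8002 bp of H3K27ac in control, under a peak of 52398 bp, and 7580 bp in mutant embryos, where the widest peak was 8913 bp.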

How the data were processed

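The 4 peak lists are chromosome, start and end positions as deposited by the authors (unit: other, genome positions), 1 list for the 2 immunoprecipitation libraries of each mark and condition. Per the submitters' processing notes, CASAVA, Trimmomatic, Bowtie2, SAMtools, Picard, MACS2 and deepTools were used on build mm10 (GRCm38); versions, settings and order are not given in the sources used here, nor is whether the libraries were pooled or how the inputs were used. Groups were taken from the sample titles. Intervals follow the BED convention in the lists and are given 1-based here.

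Peaks on chromosomes 1 to 19, X and Y were intersected with RefSeq GRCm38.p6 gene and promoter tables (Python 3.11.15, numpy 2.4.6, matplotlib 3.10.9). A peak counted from 1 bp of overlap. A difference was called at 2-fold in covered bases, and a gene at 0 bp in mutant embryos counted as lower. Widths are of whole peaks, also where they extend over other genes. The scripts were tested on simulated data. With 1 list per group there is no error and no test. All 9 genes are named, and of the 37 other pathway genes those with a gene-end peak in 1 condition alone. Beyond these 37, 1 gene first listed is left out of all counts and not reported here. Members and lists were chosen with earlier results of these data known. Alternatives changed the windows, the minimum overlap, the joining of peaks and the peaks retained; windows around RefSeq start sites (gene ends for Dppa3), and alternatives for single start sites, were chosen after seeing the data.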

Additional observations from a re-analysis of the deposited data

How the results depend on the processing

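Of 96 values recomputed under alternatives, 86 stayed within 1.5 times of the reported value and 10 moved. With windows of 1 kb, 1 gene had H3K27ac at least 2-fold higher in mutant embryos (Dnmt3b) where none had, 3 had H3K4me3 at least 2-fold lower (Dnmt1, Dnmt3a, Dnmt3b) where 1 had, and 1 had both marks on a base in control alone (Dnmt3a) where none had. The 1 gene with H3K27ac at least 2-fold lower was then Dppa3 and not Tet1. With windows of 5 kb, H3K27ac was at least 2-fold higher at 1 gene (Tet3) and lower at 0, and H3K4me3 lower at 0. In the wider 50% of each list, H3K4me3 was at least 2-fold higher at 1 gene (Dnmt3b) and lower at 0. With windows of 2 kb around RefSeq start sites (gene ends for Dppa3, which has no entry), H3K27ac was at least 2-fold lower at 2 genes (Uhrf1, Tet2), which were also the 2 with both marks on a base in control alone. The ratio of covered bases stayed between 0.797 and 0.827 for H3K27ac and between 0.834 and 0.869 for H3K4me3. Genes with a gene-end peak numbered 8 to 9 in each list, except for mutant H3K27ac in that last alternative, with 6 including Dppa3. After merging peaks less than 1 kb apart, the widest Tet2 H3K27ac peak was wider in mutant embryos, 9000 bp against 7385 bp. At the start sites of Tet2 and Uhrf1 mutant H3K27ac was 0 bp in each alternative, except for 177 bp at Uhrf1 with windows of 5 kb. At Dnmt3b mutant H3K4me3 was 0 bp except for 14 bp with windows of 5 kb, and with the wider 50% of peaks alone the control value was 0 bp as well. The cause of these shifts was not tested. No paired analysis was possible because only 1 peak list stands for the 2 libraries of a group, and no replicate could be left out for the same reason. Peak positions carry no depth, so the precision of a boundary or of an absent peak is unknown.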

Other observations

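The ends of 2 of the 48 control H3K27ac peaks at the 9 genes, one inside Tet1 and one inside Tet2, fell on the same base as the end of a mutant H3K27ac peak. Over the whole control H3K27ac list, 60 of 77349 peak ends (0.0776%) did so. None of the 48 starts was identical, and none of the H3K4me3 boundaries at these genes matched between conditions.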
